A study of Mus musculus with 23 samples.

Results

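The general pluripotency factors examined here are 6 genes chosen by name: Pou5f1, Sox2, Sall4, Sall1, Utf1 and Sox15. They are 6 of the 53607 gene rows of the deposited count matrix, and all 6 were among the 20372 genes that had enough reads to be tested. The RNA came from 23 libraries of mouse embryonic stem cells, all of which carried H-Ras-/-, N-Ras-/-, a floxed copy of the remaining RAS gene and Ubiq-CreERT2, a tamoxifen-inducible recombinase driven by a ubiquitin promoter. The design varied ERF, an ETS-family transcriptional repressor, which the labels give as wild type or knockout. The floxed RAS gene was present, or was deleted by 6 days of 4-hydroxytamoxifen. Effects of the drug and of the deletion cannot be told apart. Cells were kept in 2iL, a naive medium with LIF and inhibitors of MEK and GSK3, or were moved for 48 h to FA, which holds FGF2 and Activin A and induces epiblast-like cells. The 8 groups had 3 libraries each, except that the reference cultures (ERF wild type, RAS present) had 2 in FA.

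Pou5f1 encodes OCT4, a POU-domain factor, and Sox2 encodes an HMG-box factor, and the pair binds composite elements at many enhancers active in pluripotent cells. Sall4 and Sall1 are zinc-finger factors that recruit the NuRD histone deacetylase complex. Utf1 is a chromatin-associated coactivator restricted largely to pluripotent cells and the germ line, and Sox15 is an HMG-box factor that can also bind DNA beside OCT4. Pou5f1 is active in both naive and early post-implantation epiblast. In the GENCODE M21 annotation of GRCm38, the coding genes lie at chr17:35506018-35510772 (Pou5f1, plus strand, up to 5 exons), chr3:34650405-34652461 (Sox2, plus strand, 1 exon) and chr2:168748332-168767943 (Sall4, minus strand, up to 4 exons). The others lie at chr8:89027235-89044162 (Sall1, minus strand, 4 exons), chr7:139943789-139945112 (Utf1, plus strand, 2 exons) and chr11:69655314-69656727 (Sox15, plus strand, 2 exons). Sox2 lies inside the non-coding gene Sox2ot on the same strand, whose level ran from 0.539 to 4.37 CPM.

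Because ERF binds DNA through an ETS domain, the promoters of the 4 members that differed at least 2-fold by ERF label in any comparison below are shown, from 250 bases before to 50 bases after the RefSeq start in GRCm38.p6. Capitals mark matches, on either strand, to an ETS core (CCGGAA), a GC box (GGGCGG) or part of the octamer bound by OCT4 (ATGCAAA), and matches to 1 motif may overlap.
Sox2 promoter, chr3:34649745-34650044, plus strand: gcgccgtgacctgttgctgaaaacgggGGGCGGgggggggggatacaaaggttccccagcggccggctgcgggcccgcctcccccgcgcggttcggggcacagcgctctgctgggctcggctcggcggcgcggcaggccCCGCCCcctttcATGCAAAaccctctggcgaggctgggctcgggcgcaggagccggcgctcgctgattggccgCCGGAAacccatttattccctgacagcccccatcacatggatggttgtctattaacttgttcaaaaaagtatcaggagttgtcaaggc
Sall1 promoter, chr8:89044113-89044412, minus strand: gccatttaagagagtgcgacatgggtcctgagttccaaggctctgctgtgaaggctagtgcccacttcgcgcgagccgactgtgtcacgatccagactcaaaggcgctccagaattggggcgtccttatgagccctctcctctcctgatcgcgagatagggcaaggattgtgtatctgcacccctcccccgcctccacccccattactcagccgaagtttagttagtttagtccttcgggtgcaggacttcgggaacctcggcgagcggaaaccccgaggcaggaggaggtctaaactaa
Utf1 promoter, chr7:139943606-139943905, plus strand: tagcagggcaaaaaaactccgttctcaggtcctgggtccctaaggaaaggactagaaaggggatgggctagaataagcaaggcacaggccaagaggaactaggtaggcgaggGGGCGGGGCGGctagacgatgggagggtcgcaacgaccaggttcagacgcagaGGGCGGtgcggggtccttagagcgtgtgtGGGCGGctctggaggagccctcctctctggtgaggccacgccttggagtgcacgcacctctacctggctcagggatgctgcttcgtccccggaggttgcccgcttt
Sox15 promoter, chr11:69654787-69655086, plus strand: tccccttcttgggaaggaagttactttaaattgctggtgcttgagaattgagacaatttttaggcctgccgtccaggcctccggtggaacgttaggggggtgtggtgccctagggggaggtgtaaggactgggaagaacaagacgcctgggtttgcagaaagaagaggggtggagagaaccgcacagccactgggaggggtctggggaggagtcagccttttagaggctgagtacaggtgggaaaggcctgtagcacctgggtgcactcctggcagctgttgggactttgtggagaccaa
The ETS core searched, CCGGAA, was found once in the Sox2 window and in none of the other 3 windows printed. Other forms of an ETS site were not searched. The Sox2 window also held 1 octamer part and 2 GC boxes, and the Utf1 window held 4 GC boxes. Of 32544 promoters of the same length, 15.0% held the ETS core, 35.9% the GC box and 4.65% the octamer part. Sall1 has 2 further RefSeq starts, whose windows held GC boxes and neither of the other motifs. The Sox2 and Sox15 windows follow RefSeq starts and end upstream of the GENCODE starts, at 34650405 and 69655314. A match describes letters and does not show that a factor binds there.

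Library totals ran from 16.2 to 29.9 M estimated counts, with a median of 22 M, and the gene Gm26917 took 17.6 to 27.9% of each. Erf RNA was not depleted under its knockout label: in 2iL with RAS present it stood at 116 ± 17.5 CPM (SD, n = 3) under the knockout label, against 77.5 ± 7.66 CPM (SD, n = 3) in the reference libraries, and in FA at 57.5 ± 7.06 CPM (SD, n = 3) against 63.1 ± 9.40 CPM (SD, n = 2). Counts over the whole gene cannot show a small or local disruption, so the knockout is stated by label throughout. Replicate 1 of all 4 ERF wild type groups had raised RNA from chromosome 8, where Sall1 lies, and replicate 1 of all 4 groups labelled ERF knockout had raised RNA from chromosome 11, where Sox15 lies. Those values are given with the 2 genes. The labels do not say whether replicates came from separate cultures. Within each ERF label, replicate 1 shared its raised chromosome across RAS status and medium, so same-numbered libraries may be related. The main model has no replicate block. Its p-values measure the spread between these libraries, part of which may be technical.

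Levels are counts per 1 M counts of the TMM-scaled library (CPM) and can be compared between libraries for 1 gene, not between genes. The 6 genes followed different courses over the 8 groups. Between the groups with the highest and the lowest mean CPM, Pou5f1 spanned 2.49-fold and Sall4 2.59-fold, Sox2 spanned 3.61-fold, and Sall1, Sox15 and Utf1 spanned 7.99-fold, 8.84-fold and 9.0-fold. Differences were tested with edgeR's quasi-likelihood test in 1 model of all libraries, with Benjamini-Hochberg adjustment over all genes tested. A gene passed when its adjusted p was under 0.05. Of the 72 tests of the 6 members in 12 comparisons that change 1 factor, 49 passed. Over all genes tested, the share that passed ran from 1.32% to 55.7% between these comparisons, and it is given with each count of members below. In bulk RNA, fewer cells that express a gene and less RNA per cell cannot be told apart.

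**Figure D1:**
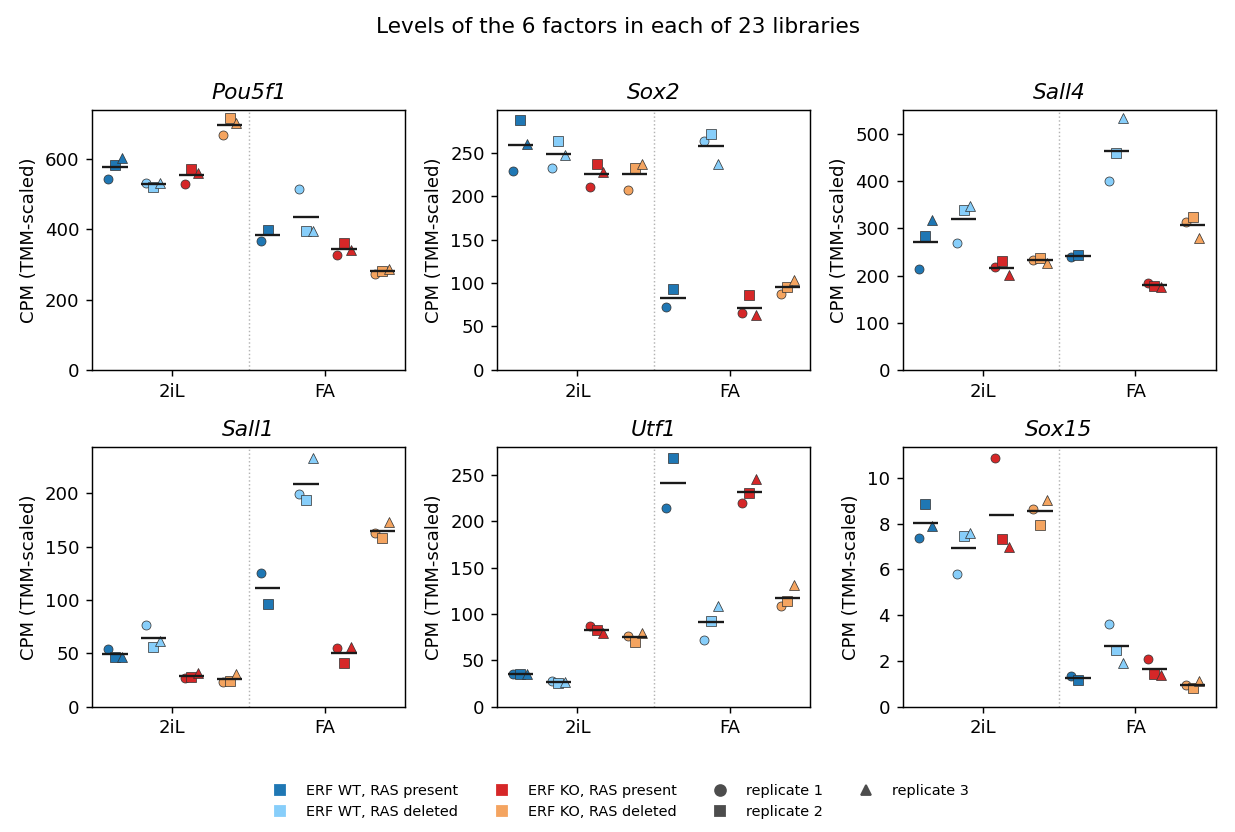
CPM of each member in each of 23 libraries (points, shaped by replicate number) with the mean of each group (bar), in 2iL (left of the dotted line) and FA (right). Sox2 in RAS-deleted ERF wild type cells stayed between 237 and 271 CPM in FA, while the other 3 groups in FA lay between 63.0 and 104 CPM.

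Pou5f1 was lower in FA than in 2iL in all 4 backgrounds, and each of its FA libraries lay below each of its 2iL libraries. In 2iL it was read at 544, 583 and 603 CPM in the reference libraries and at 533, 521 and 531 CPM after RAS deletion. The libraries labelled ERF knockout had 529, 571 and 562 CPM with RAS present and 669, 717 and 703 CPM with RAS deleted. The last group lay above all other libraries of the series. In FA the reference libraries had 367 and 399 CPM and the RAS-deleted ERF wild type libraries 514, 394 and 395 CPM, 1 of which stood well above the other 2. Levels were 326, 360.4 and 342 CPM in FA where ERF alone was labelled knockout, and 272, 281 and 287 CPM with both changes, the lowest of all groups. In the order of the means, the other 3 groups in 2iL overlapped their neighbours, as did the 2 ERF wild type groups in FA, and the remaining neighbours did not.

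The fall of Pou5f1 from 2iL to FA was 0.59 on the log2 scale in the reference cultures (log2 change -0.59 ± 0.09 SE, edgeR adjusted p = 8.99e-06). It was -0.28 ± 0.08 with RAS deleted (edgeR adjusted p = 0.00615), -0.69 ± 0.08 with the ERF knockout label (edgeR adjusted p = 1.9e-07) and -1.31 ± 0.08 with both (edgeR adjusted p = 4.82e-12). Among RAS-deleted cultures the 2 falls differed by -1.03 ± 0.11 between ERF labels (edgeR adjusted p = 4.73e-07). The ERF label went with higher Pou5f1 in RAS-deleted cells in 2iL (0.40 ± 0.08, edgeR adjusted p = 0.000364) and with lower Pou5f1 in FA (-0.63 ± 0.08, edgeR adjusted p = 9.55e-07). With RAS present, the differences by ERF label were -0.06 ± 0.08 in 2iL and -0.16 ± 0.09 in FA, neither passing. For RAS deletion in FA, Pou5f1 was at -0.29 ± 0.08 with the ERF knockout label (edgeR adjusted p = 0.00962), which no longer passed without replicate 1 of all groups with that label (edgeR adjusted p = 0.0611). With ERF wild type it was 0.18 ± 0.09 (edgeR adjusted p = 0.108), and it passed without replicate 2 or 3 of the RAS-deleted FA group (0.25, edgeR adjusted p = 0.0393 and 0.0374). It was 0.045 without replicate 1 of that group, the library at 514 CPM. It was 0.0 without replicate 1 of all ERF wild type groups, which left 1 reference library in FA. RAS deletion went with 0.33 ± 0.08 higher Pou5f1 in 2iL in the cultures labelled ERF knockout (edgeR adjusted p = 0.0382), a call lost on leaving out any 1 of the 6 libraries (edgeR adjusted p from 0.0566 to 0.177). With 2 groups alone in the fit, the fall with RAS deleted and ERF wild type no longer passed (edgeR adjusted p = 0.0625), nor did it without FA replicate 2 (edgeR adjusted p = 0.0551).

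Sox2 fell in FA in 3 backgrounds, by 2.37- to 3.14-fold, and in RAS-deleted cells with ERF wild type its FA libraries (237 to 271 CPM) overlapped its 2iL libraries (233 to 263 CPM). In 2iL the libraries had 229, 288 and 260.3 CPM in the reference group and 233, 263 and 248 CPM after RAS deletion. With the ERF knockout label they had 211, 236 and 228 CPM with RAS present and 208, 233 and 237 CPM with RAS deleted. All 4 groups in 2iL overlapped. In FA the reference libraries held 72.8 and 93.0 CPM, and the libraries labelled ERF knockout 65.8, 86.4 and 63.0 CPM. The RAS-deleted ERF wild type libraries held 264, 271 and 237 CPM, far above them. The RAS-deleted libraries labelled ERF knockout held 87.2, 94.9 and 104 CPM, overlapping the reference libraries in FA.

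On the log2 scale the change of Sox2 from 2iL to FA was -1.65 ± 0.13 in the reference cultures (3.13-fold lower, edgeR adjusted p = 6.4e-10). It was -1.65 ± 0.11 with the ERF knockout label (edgeR adjusted p = 6.92e-11) and -1.25 ± 0.11 with both changes (edgeR adjusted p = 3.59e-09). With RAS deleted and ERF wild type it was 0.05 ± 0.11 (95% interval -0.16 to 0.27, edgeR adjusted p = 0.728). RAS deletion in FA separated the ERF wild type groups by 1.64 ± 0.13 (edgeR adjusted p = 1.3e-09) and the groups labelled ERF knockout by 0.41 ± 0.11 (edgeR adjusted p = 0.00978). Those effects differed by -1.23 ± 0.17 (edgeR adjusted p = 9.44e-06). The smaller one no longer passed once replicate 1 or 3 of the FA libraries with ERF alone labelled knockout was left out (edgeR adjusted p = 0.0548 and 0.0569), nor without replicate 1 of all groups with that label (edgeR adjusted p = 0.0779). By ERF label, Sox2 was 2.70-fold lower in RAS-deleted cells in FA (-1.43 ± 0.11, edgeR adjusted p = 8.38e-10), while the differences in the other 3 settings ran from -0.21 to -0.14 and did not pass. Sox2ot followed a like order in FA, at 3.65 ± 0.911 CPM with RAS deleted and ERF wild type against 0.955 to 1.76 CPM in the other 3 group means, and its part in the Sox2 counts was not tested.

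Sall4 was highest after RAS deletion in FA. Its 2iL libraries held 213, 284 and 318 CPM in the reference group, 269, 339 and 348 CPM after RAS deletion, 218, 232 and 201 CPM with the ERF knockout label, and 232, 238 and 227 CPM with both. In FA the reference libraries held 240.0 and 244 CPM and those labelled ERF knockout 185, 177 and 176 CPM. The RAS-deleted libraries in FA held 401, 459 and 533 CPM with ERF wild type, above every other library, and 313, 324 and 280.3 CPM with the ERF knockout label. Sall4 passed in 8 of 12 comparisons and reached 2-fold in 0. Between these comparisons, 1.32% to 55.7% of all genes tested passed and 0.211% to 24.9% also reached 2-fold.

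RAS deletion in FA went with 1.92-fold higher Sall4 in ERF wild type cultures (0.94 ± 0.14, edgeR adjusted p = 8.74e-06) and 1.71-fold higher Sall4 in those labelled ERF knockout (0.77 ± 0.12, edgeR adjusted p = 7.99e-05). The difference between these effects was -0.17 ± 0.18 (95% interval -0.52 to 0.18, edgeR adjusted p = 0.521). Moving to FA raised Sall4 in both RAS-deleted backgrounds, by 0.54 ± 0.12 (edgeR adjusted p = 0.000798) and 0.40 ± 0.12 (edgeR adjusted p = 0.00694), and the values with RAS present were -0.17 ± 0.13 with ERF wild type and -0.27 ± 0.12 with the knockout label, neither passing. The second of these passed without a filter on low counts (-0.26, edgeR adjusted p = 0.0101) and with the 2 groups alone in the fit (-0.29, edgeR adjusted p = 0.00189). The rise with both changes no longer passed without replicate 1 of all groups labelled ERF knockout (0.36, edgeR adjusted p = 0.094). Mean Sall4 was lower under the ERF knockout label in all 4 settings, though in 2iL with RAS present the libraries of the 2 groups overlapped, with log2 differences of -0.33, -0.46, -0.43 and -0.60 in the order 2iL with RAS present, 2iL with RAS deleted, FA with RAS present and FA with RAS deleted. The smallest of these rests on edgeR adjusted p = 0.0455 and the third on 0.0415. Leaving out single libraries ended the former in 5 of 6 cases, with values from -0.457 to -0.196. It ended the latter in 5 of 5 cases, with values from -0.451 to -0.404. Both also no longer passed with an offset for effective transcript length (edgeR adjusted p = 0.115 and 0.0983) or without Gm26917 (0.0575 and 0.0542), and the former also with the 2 groups alone in the fit (0.116). The FA minus 2iL difference in the reference cultures passed without 2iL replicate 1 (-0.32, edgeR adjusted p = 0.0287). It was also -0.32 without replicate 1 of all ERF wild type groups, which left 1 reference library in FA.

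Sall1 rose in FA in all 4 backgrounds, and its largest fitted rise was with both changes. Its libraries in 2iL held 54.3, 46.4 and 46.7 CPM in the reference group and 76.6, 55.9 and 61.4 CPM after RAS deletion. With the ERF knockout label they held 27.4, 27.8 and 31.9 CPM with RAS present and 23.2, 24.2 and 30.9 CPM with RAS deleted, below every ERF wild type library. In FA the levels were 125 and 96.5 CPM in the reference libraries, 55.3, 40.7 and 56.2 CPM with the ERF knockout label, 199, 194 and 233 CPM with RAS deleted, and 162, 158 and 173 CPM with both. Both RAS-deleted groups in FA lay above every other library.

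The change of Sall1 from 2iL to FA was 1.17 ± 0.15 in the reference cultures (edgeR adjusted p = 1.52e-06), 0.81 ± 0.14 with the ERF knockout label (edgeR adjusted p = 8.29e-05) and 1.69 ± 0.14 with RAS deleted (edgeR adjusted p = 5.02e-09). With both it was 2.66 ± 0.15, a 6.33-fold rise (edgeR adjusted p = 5.29e-12). RAS deletion in FA went with 0.91 ± 0.15 higher Sall1 with ERF wild type (edgeR adjusted p = 6.88e-05) and 1.70 ± 0.14 higher Sall1 with the ERF knockout label (edgeR adjusted p = 3.97e-08). The ERF knockout label went with lower Sall1 in 2iL, at -0.76 with RAS present (edgeR adjusted p = 0.000421) and -1.31 with RAS deleted (edgeR adjusted p = 5.36e-07), and in FA at -1.13 with RAS present (edgeR adjusted p = 0.000164). In FA with RAS deleted the difference was -0.34 ± 0.13 (edgeR adjusted p = 0.0448), and it no longer passed on leaving out any of 5 of the 6 libraries or with the length offset (edgeR adjusted p = 0.0539).

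Sall1 lies on chromosome 8, whose 582 expressed genes had a median 0.248 to 0.36 higher on the log2 scale in replicate 1 of the ERF wild type groups than in the other libraries of the same medium, against -0.105 to -0.033 in the remaining 19 libraries. In 3 of those 4 groups replicate 1 had the highest Sall1, the exception being RAS deletion in FA. Leaving out these 4 libraries was a choice made after seeing the data, and it left 1 reference library in FA. Effect sizes alone are therefore given for it. The differences by ERF label became -0.67 and -1.16 in 2iL and -0.90 and -0.37 in FA. The rise with RAS deletion in FA with ERF wild type became 1.16. The difference of the RAS effects between ERF labels in FA moved from 0.79 ± 0.20 (edgeR adjusted p = 0.00542) to 0.53 and no longer passed.

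**Figure D2:**
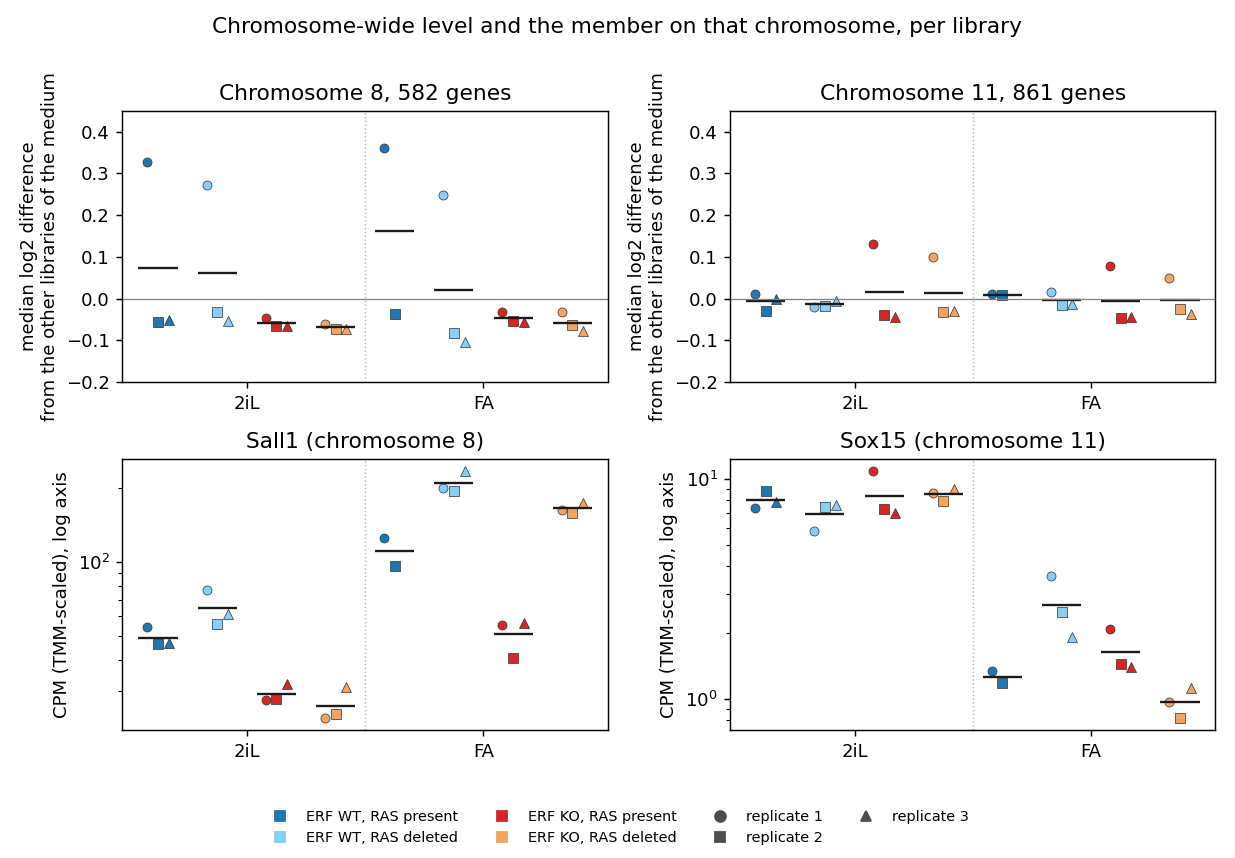
Top, median log2 difference of all expressed genes on chromosomes 8 and 11 in each library from the other libraries of its medium; bottom, CPM of Sall1 and Sox15, which lie there, on a log axis. Bars are group means. Replicate 1 (circles) stands apart on chromosome 8 in the ERF wild type groups (0.248 to 0.36) and, by less, on chromosome 11 in the groups labelled ERF knockout (0.05 to 0.13).

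Utf1 had the widest range of the 6 in group mean CPM, narrowly ahead of Sox15 (9.0-fold against 8.84-fold). It differed by medium, by RAS status in FA and by ERF label in 2iL. In 2iL it stood at 34.8, 35.0 and 35.3 CPM in the reference libraries and at 27.8, 25.4 and 27.1 CPM after RAS deletion. With the ERF knockout label it stood at 86.8, 82.3 and 79.9 CPM, and at 76.4, 70.3 and 79.3 CPM with both, so that no ERF wild type library in 2iL came near one labelled ERF knockout. In FA the reference libraries held 214 and 268 CPM and those labelled ERF knockout 219.6, 230.4 and 245 CPM, which overlapped. RAS-deleted libraries in FA held 72.2, 92.4 and 108 CPM with ERF wild type and 108, 114 and 131 CPM with the ERF knockout label. These 2 groups met at 108 CPM, and both lay below every RAS-present library in FA.

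The rise of Utf1 from 2iL to FA was 6.88-fold in the reference cultures (2.78 ± 0.12, edgeR adjusted p = 3.46e-14) and 3.39-fold with RAS deleted (1.76 ± 0.11, edgeR adjusted p = 3.47e-11). Starting higher, cultures labelled ERF knockout showed a rise of 2.79-fold (1.48 ± 0.11, edgeR adjusted p = 1.34e-10), and with both changes it was 1.56-fold (0.64 ± 0.11, edgeR adjusted p = 2.22e-05). In 2iL the ERF knockout label went with 2.37-fold higher Utf1 with RAS present (1.24 ± 0.11, edgeR adjusted p = 2.51e-08) and 2.81-fold higher Utf1 with RAS deleted (1.49 ± 0.11, edgeR adjusted p = 1.05e-09). In FA the same differences were -0.06 ± 0.12 (95% interval -0.29 to 0.17) with RAS present, which did not pass, and 0.37 ± 0.11 with RAS deleted (edgeR adjusted p = 0.00669). The difference by ERF label thus differed between media by -1.30 ± 0.16 with RAS present (edgeR adjusted p = 1.56e-05) and by -1.12 ± 0.15 with RAS deleted (edgeR adjusted p = 1.08e-05). The 0.37 difference no longer passed without replicate 1 of the RAS-deleted ERF wild type group in FA (0.23, edgeR adjusted p = 0.0566), the lowest of its 3 libraries, nor with the 2 groups alone in the fit (edgeR adjusted p = 0.0814).

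RAS deletion in FA lowered Utf1 2.65-fold with ERF wild type (-1.41 ± 0.12, edgeR adjusted p = 1.72e-09) and 1.97-fold with the ERF knockout label (-0.98 ± 0.11, edgeR adjusted p = 7.57e-07). The difference between those effects, 0.43 ± 0.16, passed narrowly (edgeR adjusted p = 0.0463) and was lost on leaving out 7 of 11 libraries in turn, to as little as 0.23 without replicate 2 of the reference group in FA. It was also lost with the length offset (edgeR adjusted p = 0.054), without Gm26917 (0.0577) and with the compared groups alone in the fit (0.161). In 2iL, RAS deletion with ERF wild type went with 1.31-fold lower Utf1 (-0.39 ± 0.11, edgeR adjusted p = 0.0463), which no longer passed without any 1 of the 6 libraries (edgeR adjusted p from 0.0679 to 0.161).

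Sox15 had the fewest counts of the 6, at 20 to 226 per library. In 2iL it stood at 7.38, 8.86 and 7.89 CPM in the reference libraries, 5.80, 7.45 and 7.59 CPM after RAS deletion, 10.8, 7.30 and 6.98 CPM with the ERF knockout label, and 8.64, 7.95 and 9.02 CPM with both. Neighbouring groups in 2iL overlapped in the order of their means. In FA it was read at 1.33 and 1.18 CPM in the reference libraries, 3.63, 2.47 and 1.90 CPM with RAS deleted, 2.08, 1.43 and 1.39 CPM with the ERF knockout label, and 0.965, 0.816 and 1.12 CPM with both. Every FA library lay below every 2iL library, and the doubly changed group was the lowest.

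The fall of Sox15 from 2iL to FA was 6.33-fold in the reference cultures (-2.66 ± 0.27, edgeR adjusted p = 1.91e-08) and 5.12-fold with the ERF knockout label (-2.36 ± 0.22, edgeR adjusted p = 8.27e-09). It was 2.62-fold with RAS deleted (-1.39 ± 0.21, edgeR adjusted p = 1.33e-05) and 8.79-fold with both (-3.14 ± 0.24, edgeR adjusted p = 1.38e-10). For RAS deletion in FA, Sox15 was at 1.07 ± 0.27 with ERF wild type (edgeR adjusted p = 0.00303) and at -0.76 ± 0.26 with the knockout label (edgeR adjusted p = 0.0336). The latter no longer passed with the length offset (edgeR adjusted p = 0.0503), without replicate 1 of the RAS-present group (-0.55, edgeR adjusted p = 0.183), or without replicate 1 or 2 of the RAS-deleted group (edgeR adjusted p = 0.0838 and 0.115). Those effects differed by -1.82 ± 0.38 (edgeR adjusted p = 0.000773). Between ERF labels, Sox15 was 2.73-fold lower in RAS-deleted cells in FA (-1.45 ± 0.25, edgeR adjusted p = 4.53e-05), and in the other 3 settings the values ran from 0.07 to 0.37 and did not pass. The rise with ERF wild type did not pass with the 2 groups alone in the fit (1.08 ± 0.37, edgeR adjusted p = 0.0595).

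Chromosome 11, with 861 expressed genes, had a median 0.05 to 0.13 higher in replicate 1 of the groups labelled ERF knockout, against -0.047 to 0.017 in the other 19 libraries. In the RAS-present groups with that label, replicate 1 had the highest Sox15 in both media. Without these 4 libraries, again a choice made after seeing the data, the fall with RAS deletion in FA became -0.56 ± 0.30 and no longer passed (edgeR adjusted p = 0.253), the difference of RAS effects was -1.64 ± 0.40 (edgeR adjusted p = 0.00633) and the difference by ERF label with RAS deleted in FA was -1.46 ± 0.27 (edgeR adjusted p = 0.000307).

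**Figure D3:**
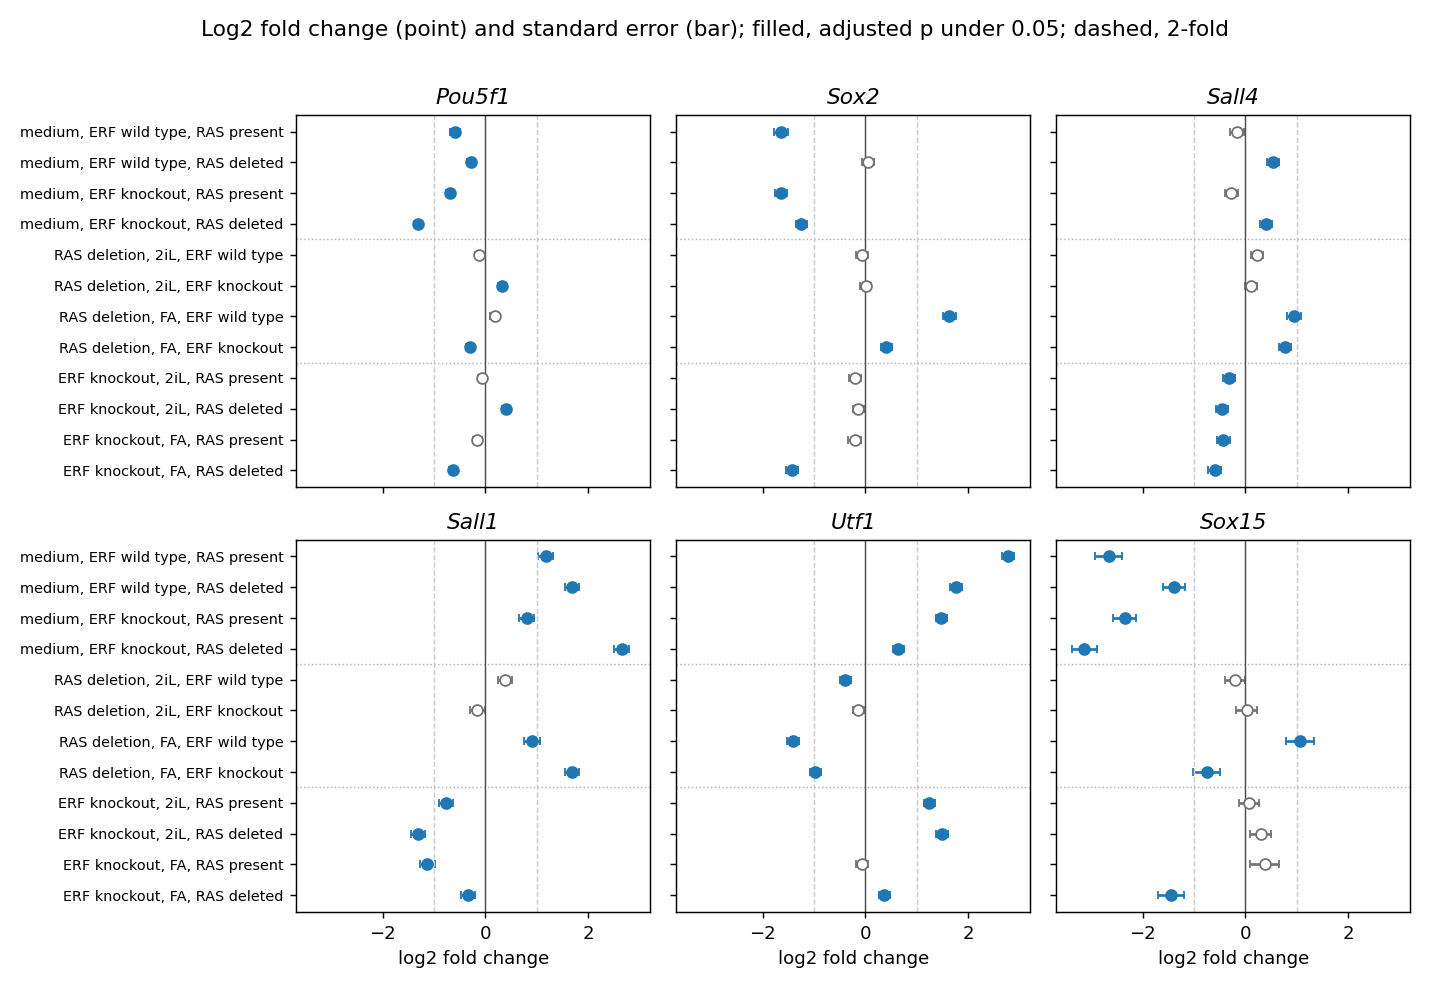
Log2 fold change (point) and standard error (bar) of each member in the 12 comparisons that change 1 factor, as FA minus 2iL, RAS deleted minus present, or ERF knockout label minus wild type. Filled points had an edgeR adjusted p under 0.05 and dashed lines mark 2-fold. In the 2iL rows of RAS deletion 2 of 12 points are filled, against 11 of 12 in the FA rows. Of all genes tested, 5.70% (ERF wild type) and 1.32% (knockout label) passed in 2iL, against 41.3% and 26.4% in FA.

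Counted over the 6 members, 5 or 6 passed for the medium in each background. In the reference cultures 5 of 6 passed, where 49.5% of all genes tested did. In that comparison 4 also reached 2-fold, where 24% of all genes did. Sall1 and Utf1 were higher, and Pou5f1, Sox2 and Sox15 lower. With RAS deleted and ERF wild type 5 passed (43.0% of all genes) and 3 reached 2-fold (16.5%), with Sox2 the one that did not pass. Under the ERF knockout label 5 passed (46.9%) and 3 reached 2-fold (19.7%), with Sall4 the one that did not. With both changes 6 passed (55.7%) and 4 reached 2-fold (24.9%). In these 4 comparisons the median log2 change of the 6 was -0.38, 0.30, -0.48 and -0.42, against 0.04, 0.01, 0.02 and 0.04 over all genes tested.

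Few members passed for RAS deletion in 2iL. The log2 changes with ERF wild type were -0.13 ± 0.08 for Pou5f1, -0.06 ± 0.11 for Sox2, 0.23 ± 0.12 for Sall4, 0.39 ± 0.14 for Sall1, -0.39 ± 0.11 for Utf1 and -0.21 ± 0.20 for Sox15. In the same order they were 0.33 ± 0.08, 0.005 ± 0.11, 0.10 ± 0.12, -0.16 ± 0.15, -0.14 ± 0.11 and 0.02 ± 0.20 with the ERF knockout label. With ERF wild type 1 of 6 passed (5.70% of all genes tested), namely Utf1, and 0 reached 2-fold (1.20%). Under the ERF knockout label 1 passed (1.32%), namely Pou5f1, and 0 reached 2-fold (0.211%). In the second of these comparisons replicate numbers paired the libraries, and a fit with the replicate number as a block gave 2 passing members, Utf1 being added at -0.15 ± 0.05 (edgeR adjusted p = 0.0316). In the first, the correlations of same-numbered libraries were 0.097 to 0.324, and 1 pair fell short of the cut of 0.1. A fit with that block gave 3 passing members there in place of 1. In FA, RAS deletion with ERF wild type gave 5 passing members (41.3%) and 3 past 2-fold (17.3%): Sox2, Sall4, Sall1 and Sox15 were higher and Utf1 lower. With the ERF knockout label 6 passed (26.4%) and 1, Sall1, reached 2-fold (6.88%). The median of the 6 in FA was 0.93 with ERF wild type and 0.06 with the ERF knockout label, against 0.00 over all genes in both. For 4 members, namely Pou5f1, Sox2, Sall1 and Sox15, and more narrowly for Utf1, the RAS effect in FA differed between ERF labels, so that 5 of 6 passed that test where 28.0% of all genes did, 2 of them past 2-fold (13.7%).

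By ERF label in 2iL, 3 members passed with RAS present (27.8% of all genes tested) and 1, Utf1, reached 2-fold (9.72%). With RAS deleted 4 passed (39.1%) and 2, Utf1 and Sall1, reached 2-fold (13%). In FA with RAS present 2 passed (9.78%), Sall4 and Sall1, and 1 reached 2-fold (2.36%). In FA with RAS deleted 6 passed (42.8%) and 2, Sox2 and Sox15, reached 2-fold (16.6%). In this last comparison 5 of the 6 were lower with the ERF knockout label and Utf1 was higher, with a median of -0.62 against 0.01 over all genes. The difference by ERF label itself differed between FA and 2iL for 5 of 6 members with RAS deleted (26.4% of all genes), 4 of them past 2-fold (11.3%). With RAS present it differed for 1 of 6, Utf1 (9.34% of all genes), which also passed 2-fold (4.27%). The FA minus 2iL change differed by RAS status within ERF wild type cultures for 4 of 6 members, Sox2, Sall4, Utf1 and Sox15 (24.5% of all genes), and 3 of these reached 2-fold (11.9%).

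Per transcript length, in the deposited TPM, the order of the genes shifted with the medium. Pou5f1 had the highest mean in all 8 groups, from 240.2 ± 7.45 TPM (SD, n = 3) with both changes in FA to 467 ± 16.7 TPM (SD, n = 3) with both changes in 2iL. In the reference libraries in 2iL, Sox2 stood at 127 ± 20.1 TPM, Sall4 at 61.7 ± 17.4 TPM, Utf1 at 30.8 ± 2.09 TPM, Sox15 at 10.9 ± 1.46 TPM and Sall1 at 8.86 ± 0.314 TPM (SD, n = 3). In the reference libraries in FA, Utf1 rose to second place at 216 ± 10.4 TPM (SD, n = 2), and Sox15 was the lowest at 1.75 ± 0.340 TPM (SD, n = 2). The ratio of Utf1 to Pou5f1 TPM was 0.0675 ± 0.00236 in the former and 0.697 ± 0.0649 in the latter, against 0.242 ± 0.0770 in FA with RAS deleted. The ratio of Sox2 to Pou5f1 TPM was 0.278 ± 0.0244 in the reference libraries in 2iL, 0.134 ± 0.0145 in FA, 0.375 ± 0.0532 in FA with RAS deleted and 0.211 ± 0.0133 in FA with both changes. Libraries of the RAS-deleted ERF wild type group in FA, at 0.321 to 0.427, lay above all other libraries in FA and above all those in 2iL.

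**Figure D4:**
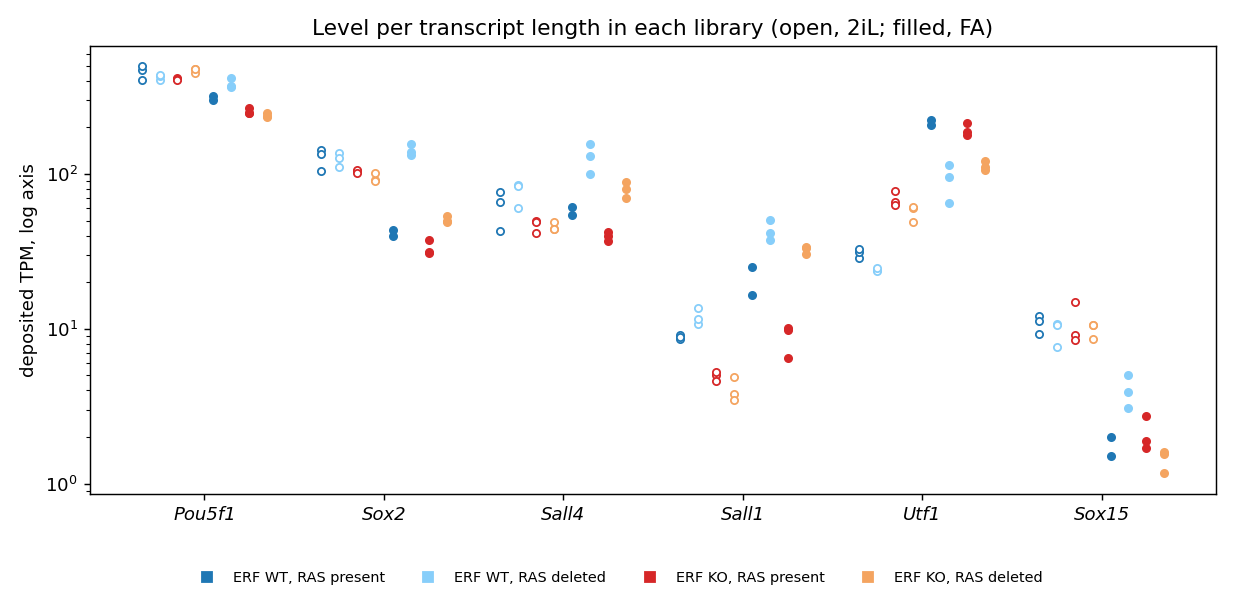
Deposited TPM of each member in each library on a log axis, open in 2iL and filled in FA, with colours for the 4 backgrounds. Pou5f1 is the highest of the 6 in every group mean (240.2 to 467 TPM), while Utf1 moves from 24.1 TPM in the lowest group mean to 216 TPM in the highest.

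In each paralog pair the less abundant member spanned the wider fold range over the groups, as given above. Sall4 exceeded Sall1 7.0 ± 2.1 times in TPM in the reference libraries in 2iL (SD, n = 3) and 2.84 ± 0.605 times in FA (SD, n = 2), and the ratio was highest, at 11.6 ± 2.22, in 2iL with both changes (SD, n = 3). Sox2 exceeded Sox15 11.7 ± 0.338 times in 2iL and 24.3 ± 6.22 times in FA in the reference libraries. With RAS deleted in FA the same ratio was 37.3 ± 9.67 with ERF wild type and 36.0 ± 5.53 with the ERF knockout label, although both genes were lower in the latter. The other Sall genes also moved. Sall2 was higher in FA in all 4 backgrounds, by 2.14 in the reference cultures and by 3.56 with both changes (log2, edgeR adjusted p = 5.75e-14 and 9.15e-18). Sall3 was higher with RAS deletion in FA, by 2.90 ± 0.30 with ERF wild type (edgeR adjusted p = 3.91e-07) and by 2.82 ± 0.28 with the ERF knockout label (edgeR adjusted p = 1.15e-06), and both Sall2 and Sall3 were lower with that label in 2iL.

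Of 9 known targets of the OCT4 and SOX2 pair, 6 were lower and 3 higher in FA in the reference cultures, where 49.5% of all genes tested passed, with a median of -2.58 where that of all genes tested was 0.04. Lefty1, a Nodal inhibitor, rose from 0.395 to 480.4 CPM (10.15 ± 0.23, edgeR adjusted p = 1.2e-17), while Spp1, which encodes osteopontin, fell by 3.41 (edgeR adjusted p = 7.5e-09). With RAS deleted and ERF wild type 2 targets were higher and 2 lower (43.0% of all genes passed), with a median of -0.13. RAS deletion in FA raised 7 of the 9 and lowered 1 in ERF wild type cultures (41.3% of all genes), with a median of 2.24 where that of all genes was 0.00, led by Zfp42 (3.65 ± 0.23, edgeR adjusted p = 4.06e-10) and Nr0b1 (2.55 ± 0.16, edgeR adjusted p = 1.77e-11). With the ERF knockout label it raised 6 and lowered 1 (26.4% of all genes), with a median of 0.67. In RAS-deleted cells in FA, the ERF knockout label went with 6 lower and 3 higher targets (42.8% of all genes), Zfp42 at -3.45 ± 0.19 (edgeR adjusted p = 6.01e-11). Zfp42 and Nr0b1 are also among the naive markers summed below, so these lists share genes.

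Of 11 genes known to act on Pou5f1, 4 were higher and 4 lower in FA in the reference cultures (49.5% of all genes passed), with a median of 0.06. Nr5a2, a nuclear receptor that activates Pou5f1 in the epiblast, went from 62.6 to 2.50 CPM (-4.61 ± 0.26, edgeR adjusted p = 2.86e-11), and in RAS-deleted ERF wild type cultures from 80.4 to 26.8 CPM (-1.59 ± 0.18, edgeR adjusted p = 5.6e-07). Of 13 NuRD subunits, the partners of SALL factors, 6 were higher and 4 lower in FA in the reference cultures (49.5% of all genes) and 0 reached 2-fold (24% of all genes). From 2iL to FA in RAS-deleted ERF wild type cultures 4 were higher and 4 lower (43.0% of all genes), with Mta3 up by 1.31 ± 0.09 (edgeR adjusted p = 6.39e-11) and Chd3 at -1.34 ± 0.08 (edgeR adjusted p = 1.31e-11). Among 16 other Sox genes tested, 7 were higher and 2 lower in FA in the reference cultures, a share near the 49.5% over all genes, with a median of 1.49. Sox11, a neural progenitor factor, went from 2.61 to 74.2 CPM there (4.86 ± 0.18, edgeR adjusted p = 1.21e-14). By ERF label in RAS-deleted FA cultures, 6 of the 16 were higher and 1 lower (42.8% of all genes), the latter being Sox21, a close relative of Sox2 by its HMG box (-3.73 ± 0.26, edgeR adjusted p = 2.39e-09). Of 12 other POU genes tested, 4 were higher and 5 lower in FA in the reference cultures (49.5% of all genes), and Pou3f1, a marker of epiblast-like cells, rose by 4.42 ± 0.42 (edgeR adjusted p = 1.62e-07).

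The summed level of 7 naive markers lay between 1754 and 2011 CPM in 2iL. In FA it lay between 171 and 198 CPM in the reference libraries, 973 and 1542 CPM with RAS deleted, 164 and 234 CPM with the ERF knockout label, and 243 and 258 CPM with both. The 4 epiblast-like markers summed to 43.0 to 72.5 CPM in 2iL, and in FA to 548 to 619, 102 to 290.3, 343 to 401 and 462 to 487 CPM in the same order. Among the FA groups, Pou5f1, Sox2, Sall4, Sall1 and Sox15 had their highest mean in the RAS-deleted ERF wild type group, as did the naive sum, and Utf1 and the epiblast-like sum had theirs in the reference group. For Pou5f1, Sox15 and Utf1 the libraries of the highest FA group overlapped those of the next. The part of a mix of cell states in the members' levels was not tested.

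Of markers of other cell types, the 7 for extra-embryonic endoderm summed in FA to 104 to 176 CPM with RAS present, over both ERF labels, against 15.3 to 33.3 CPM with RAS deleted. RAS deletion in FA lowered 7 of 7 with ERF wild type (41.3% of all genes passed) and 5 of 7 with the knockout label (26.4%). All 7 reached 1 CPM in the RAS-present groups in FA. The 5 neural markers summed to 97.8 to 101 CPM in FA with both changes and to 12.1 to 49.0 CPM in the other FA libraries, with 2 of 5 reaching 1 CPM. The 6 trophoblast markers summed to 110.1 to 131 CPM in ERF wild type libraries in 2iL and to 43.6 to 58.2 CPM in 2iL with the ERF knockout label, with 3 or 4 and 2 of the 6 reaching 1 CPM. Tfap2c, which is also expressed in the germ line and naive cells, made up most of that sum, at a mean of 110.9 CPM in the reference libraries and 40.6 CPM where ERF alone was labelled knockout. In FA the 6 summed to 67.4 to 76.3 CPM in the RAS-deleted ERF wild type libraries, the group in which 5 of the 6 members had their highest FA mean, and to 19.1 to 42.5 CPM in the other 3 groups. The 5 mesoderm markers stayed at or below 2.59 CPM and the 4 fibroblast markers at or below 7.67 CPM in sum in every library. No endoderm or trophoblast marker was at 0 throughout a group, and 1 neural marker was at 0 in all libraries of each of 3 groups. The part of such cells in the members' levels was not tested.

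Genes with the most similar course to each member were sought among 10095 genes with a mean of at least 5 CPM, by Pearson's r of log2(CPM + 1) over the 23 libraries, which share the media and the backgrounds. For Pou5f1 they included Aes (r = 0.971) and Psmd8 (0.962), and for Sox2 they were Sik1 (0.986), Sema4b (0.98) and Zfp59 (0.98). Sall4 was most like Trim28 (0.969), its relative Sall3 (0.961) and Ngfr (0.953). Sall1 was closest to Hectd4 (0.966), Tubb3 (0.963) and Eprn (0.957), Utf1 to Phc1 (0.976), Dtd1 (0.965) and Platr10 (0.962), and Sox15 to Brd1 (0.982), Mtm1 (0.977) and Cpt1a (0.977). No member was among the 3 closest genes of another.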

How the data were processed

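RNA was depleted of ribosomal RNA, made into strand-specific libraries and read as 75 bp pairs, per the labels. The authors deposited, per library, estimated (expected) counts and TPM per gene symbol in the columns of Salmon, per the file headers, and a matrix of counts. The matrix of counts deposited by the authors equals the rounded estimated counts (0 cells differ). Neither is normalized between libraries. Per the submitters' processing notes, bcl2fastq 2.20.0, fastp 0.20.0, Salmon and mm10 were used, and the Salmon version is not given in the sources used here. Salmon shares reads between similar transcripts, so counts of overlapping or near-identical genes are less certain.

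Libraries were grouped by label into 8 groups. The rounded estimated counts were tested with edgeR 4.0.16 (R 4.3.3): filterByExpr, TMM scaling, a robust quasi-likelihood test in 1 model of 23 libraries with a coefficient per group, and Benjamini-Hochberg adjustment over 20372 genes. Standard errors are the absolute log2 change divided by the square root of F. There were 12 comparisons of 1 factor and 4 interactions. The 6 members, the gene lists and the alternatives were chosen with earlier results of these data known. The text names, by rule, the 6 members, at most the 2 genes with the largest change per list, the 3 genes most like each member, Erf and Sox2ot. Alternatives were RLE size factors, no filter, an effective length offset, removal of Gm26917, DESeq2 1.42.0, the compared groups alone with and without a replicate block, and leaving out libraries. Leaving out replicate 1 of the ERF wild type groups, or either FA library of the reference cultures, left 1 library in the reference group in FA. Replicate numbers were taken to pair libraries where the correlation of their deviations exceeded 0.1 in every pair, which held for RAS deletion in 2iL with the ERF knockout label (0.160 to 0.296). Sox15 had the fewest counts, 20 to 226 per library. Expression of the floxed RAS gene and 1 of the genes most like Pou5f1 are not reported here. Promoters are RefSeq windows in GRCm38.p6.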

Additional observations from a re-analysis of the deposited data

Results flagged for a closer look

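Tests of a difference between 2 effects passed for 15 results of the members, all by edgeR's quasi-likelihood test, and these are flagged because an effect differed between groups. The effect of RAS deletion in FA differed between ERF labels (knockout label minus wild type) by -0.47 for Pou5f1, -1.23 for Sox2, 0.79 for Sall1, 0.43 for Utf1 and -1.82 for Sox15, on the log2 scale. Of these, Sall1 fell to 0.56 without replicate 1 of the reference group in FA and to 0.53 without the 4 libraries with raised chromosome 8. Neither passed, and both fits had only 1 reference library in FA. Utf1 no longer passed with the length offset (0.44), without Gm26917 (0.40), with the compared groups alone in the fit (0.39) or on leaving out 7 of 11 libraries in turn (as low as 0.23).

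The FA minus 2iL change differed by RAS status in ERF wild type cultures (deleted minus present) by 1.70 for Sox2, 0.71 for Sall4, -1.02 for Utf1 and 1.27 for Sox15. Without replicate 1 of the ERF wild type groups, which left 1 reference library in FA, the Sox15 difference was 1.04 and no longer passed. Sall1, at 0.52 over all libraries, was 0.82 without those libraries and passed under 5 other alternatives (0.51 to 0.74). Pou5f1 in the same comparison, at 0.31 (edgeR adjusted p = 0.0641), passed on leaving out 3 of 11 libraries in turn (0.35 to 0.38) and was 0.17 without replicate 1 of the ERF wild type groups.

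With RAS deleted, the FA minus 2iL change differed by ERF label by -1.03 for Pou5f1, -1.30 for Sox2, 0.97 for Sall1, -1.12 for Utf1 and -1.75 for Sox15. With RAS present it differed for Utf1, by -1.30.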

How the results depend on the processing

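Of 1494 log2 changes recomputed under alternatives, 1378 kept their direction and their side of the threshold, 69 no longer passed, 20 newly passed and 27 changed sign. The cause was not tested for any of them. The sign changes all concerned values near 0 that passed under no setting (edgeR or DESeq2 adjusted p of 0.576 or more). They were Sox2 for the medium in RAS-deleted ERF wild type cultures (-0.012 without replicate 1 of the ERF wild type groups), Sox2 for RAS deletion in 2iL (-0.147 to 0.017 with ERF wild type on leaving out single libraries, and with the knockout label -0.007 without a filter, -0.008 with the compared groups only, -0.009 with the replicate block and -0.046 to 0.062 on leaving out single libraries) and Sox15 for RAS deletion in 2iL with the knockout label (-0.092 to 0.25 on leaving out single libraries). Sox15 by ERF label in 2iL with RAS present was -0.148 to 0.181 on leaving out single libraries and -0.146 without replicate 1 of all groups labelled ERF knockout, and Utf1 by ERF label in FA with RAS present was -0.181 to 0.131 on leaving out single libraries. For the medium by ERF difference with RAS present, Sox2 was 0.002 with RLE factors and with DESeq2, 0.003 without a filter and without Gm26917, 0.005 with the replicate block and -0.162 to 0.183 on leaving out single libraries, and Sall4 was -0.234 to 0.039 on leaving out single libraries and 0.044 without replicate 1 of the ERF wild type groups.

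Of 265 counts of passing members, 227 stayed within 1.5 times and 38 moved. RAS deletion in 2iL with ERF wild type had 1 passing member, against 2 without a filter, 0 with the length offset, 3 with the replicate block and 0 on leaving out any library. With the knockout label it had 1, against 0 with the length offset, 2 with the replicate block, 0 on leaving out any library and 0 without replicate 1 of the groups with that label. Without those libraries RAS deletion in FA with the label had 3 in place of 6. By ERF label in FA with RAS present there were 2, against 1 with the length offset, 1 without Gm26917, 1 without replicate 1 of the groups labelled ERF knockout and 1 on leaving out any library. Asking for at least 2-fold as well left 3 for the medium in each single-change background, 0 for RAS deletion in 2iL under both labels, 3 and 1 for RAS deletion in FA, 1 and 2 by ERF label in 2iL with RAS present and deleted, 1 and 2 in FA, and 2 for the RAS by ERF difference in FA. The replicate block changed no other count by over 1.5 times. Under it, Sall4 also passed for the medium with the knockout label and RAS present (-0.292, edgeR adjusted p = 0.00108) and did not pass by ERF label in 2iL with RAS present (-0.303, edgeR adjusted p = 0.131). Sox15 rests on the fewest counts, 20 to 83 in its FA libraries.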
